A study of Mus musculus with 12 samples.

Results

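The 10 genes described here encode the signaling apparatus of the T cell receptor (TCR) and its coreceptors: Cd3d, Cd3e, Cd3g, Cd247, Cd4, Cd8a, Cd8b1, Lck, Zap70 and Cd28. They were chosen with earlier results of these data known and taken by symbol from a table of 55414 genes, in which all 10 were found. Of these, 9 were among the 15148 genes with a TPM (the deposited expression level, scaled by gene length and library total) of at least 1 in at least 6 lungs, and Cd28 was not. None of the 10 genes passed the test between genotypes, and all 10 varied widely between lungs of the same genotype.

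The RNA came from whole lungs of 12 mice on a C57BL/6J background, 1 library per mouse, all instilled with lipopolysaccharide (LPS), a bacterial cell wall component that induces acute lung injury, and sampled on day 4. In 6 mice (IL-10 B-KO) Mb1-Cre removed a floxed Il10 gene from B cells, and 6 mice were IL-10 B-WT controls, whose Cre and floxed alleles are not given in the sources used here (KO and WT below, with replicate numbers as in WT2). Mb1 is another name of Cd79a, a B cell gene, so that T cells are not the cells in which Il10 was deleted. BALF was drawn before the lungs were excised, mouse age was not stated, and lungs without LPS were not analysed here. Lung epithelial and endothelial genes were present in every library, with 9 marker genes summing to between 21568 and 112465 TPM. Most of this sum came from the epithelial genes Scgb1a1 (7754.81 to 92709.63 TPM) and Sftpc. The endothelial genes Pecam1, Cdh5 and Cldn5 lay between 261.88 and 1033.82 TPM.

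The TCR recognizes an antigen peptide through its variable chains, which have no signaling domain of their own. The CD3 delta, epsilon and gamma chains and the zeta chain (Cd247) carry the cytoplasmic motifs that LCK phosphorylates and to which ZAP-70 then docks. CD4 on helper T cells and CD8 on cytotoxic T cells bind MHC molecules and bring LCK to the receptor, while CD28 gives the second signal on binding CD80 or CD86. In the lung these genes mark T cells among many other cell types, although NK cells also use Cd247, Lck and Zap70. In whole-lung RNA, fewer T cells and less RNA per T cell cannot be told apart.

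The CD3 genes lie together on chromosome 9 (GRCm38), and their start regions are shown because Cd3d and Cd3g, which start 1355 bases apart on opposite strands, were the pair of members that varied most alike. The zeta chain gene on chromosome 1 is shown beside them because it varied less like them. Each sequence is from RefSeq on GRCm38.p6, runs 5′ to 3′ on the gene's strand, and covers 250 bases before to 50 bases after the start. Capitals mark matches to 5 short motifs on either strand: the E-box word CAGGTG, the word GGAAGT of ETS factors, the word CTTTGA of TCF and LEF factors, the word AGATAA of the GATA family and the word TGTGGT of RUNX factors. None of these words contains another.
Cd3g, chr9:44980382-44980681, minus strand: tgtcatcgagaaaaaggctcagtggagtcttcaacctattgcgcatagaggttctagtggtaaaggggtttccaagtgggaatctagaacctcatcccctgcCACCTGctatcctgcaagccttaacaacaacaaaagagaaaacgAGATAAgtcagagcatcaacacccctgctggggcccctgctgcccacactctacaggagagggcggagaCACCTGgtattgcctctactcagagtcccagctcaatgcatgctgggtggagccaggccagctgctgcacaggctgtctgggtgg
Cd3d, chr9:44981536-44981835, plus strand: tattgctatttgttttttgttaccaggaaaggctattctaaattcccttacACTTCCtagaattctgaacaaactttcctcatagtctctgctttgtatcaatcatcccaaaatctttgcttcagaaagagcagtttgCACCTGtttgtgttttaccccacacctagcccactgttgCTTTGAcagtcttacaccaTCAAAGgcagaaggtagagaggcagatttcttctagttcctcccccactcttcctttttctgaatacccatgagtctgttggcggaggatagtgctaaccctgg
Cd3e, chr9:45009562-45009861, minus strand: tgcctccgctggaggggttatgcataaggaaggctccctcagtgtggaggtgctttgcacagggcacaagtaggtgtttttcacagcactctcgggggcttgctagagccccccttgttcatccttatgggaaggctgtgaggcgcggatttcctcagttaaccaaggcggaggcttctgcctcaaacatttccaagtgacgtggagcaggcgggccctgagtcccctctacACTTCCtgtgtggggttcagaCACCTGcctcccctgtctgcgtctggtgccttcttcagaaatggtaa
Cd247, chr1:165788431-165788730, plus strand: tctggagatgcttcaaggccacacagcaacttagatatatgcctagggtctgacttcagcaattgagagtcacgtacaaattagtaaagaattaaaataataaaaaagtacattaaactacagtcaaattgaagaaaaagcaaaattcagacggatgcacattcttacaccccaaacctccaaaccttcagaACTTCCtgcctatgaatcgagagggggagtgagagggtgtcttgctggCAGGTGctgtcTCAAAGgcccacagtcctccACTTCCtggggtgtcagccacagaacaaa

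The RefSeq table held 10 promoters for 7 of the members, among them 3 starts of Zap70 and 2 of Lck, and none for Cd4, Cd8b1 and Cd28. The E-box word was present in 8 of these 10 promoters and in 20.2% of all 32851 promoters of the same length. The ETS word was present in 6 of 10 against 23.8% of all, the TCF/LEF word in 3 of 10 against 16.0%, the RUNX word in 2 of 10 against 16.8%, and the GATA word in 1 of 10 against 11.2%. A TATA box (TATAAA) was matched in 0 of 10 against 13.6% of all. The single Cd8a promoter held none of these words. These matches describe the letters of the windows and are not sites of binding.

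Across the members, the comparison asked whether the lungs of mice whose B cells lack Il10 differed in TCR complex RNA. In each count of genes, higher and lower refer to the genotype means of log2(TPM + 1), which can differ in order from the means of TPM. Of the 9 tested members, 5 had a higher and 4 a lower mean in KO lungs, the median of their log2 fold changes being 0.13 beside 0.10 over all tested genes, of which 63.2% were higher. In limma, 0 members reached an adjusted p of 0.05 together with a log2 fold change of 1 in size, a call made for 0.495% of all tested genes (4 higher and 71 lower). At an unadjusted p of 0.05, 0 members passed in limma, against 12.5% of all tested genes, and 0 of 10 passed in two-sided exact permutation tests. The groups overlapped for all 10 members, whereas 1.02% of tested genes had groups that did not overlap. The intervals were wide, so that a change of 2-fold in either direction lay inside the 95% interval for Cd8b1 and close to its bounds for several others.

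**Figure D1:**
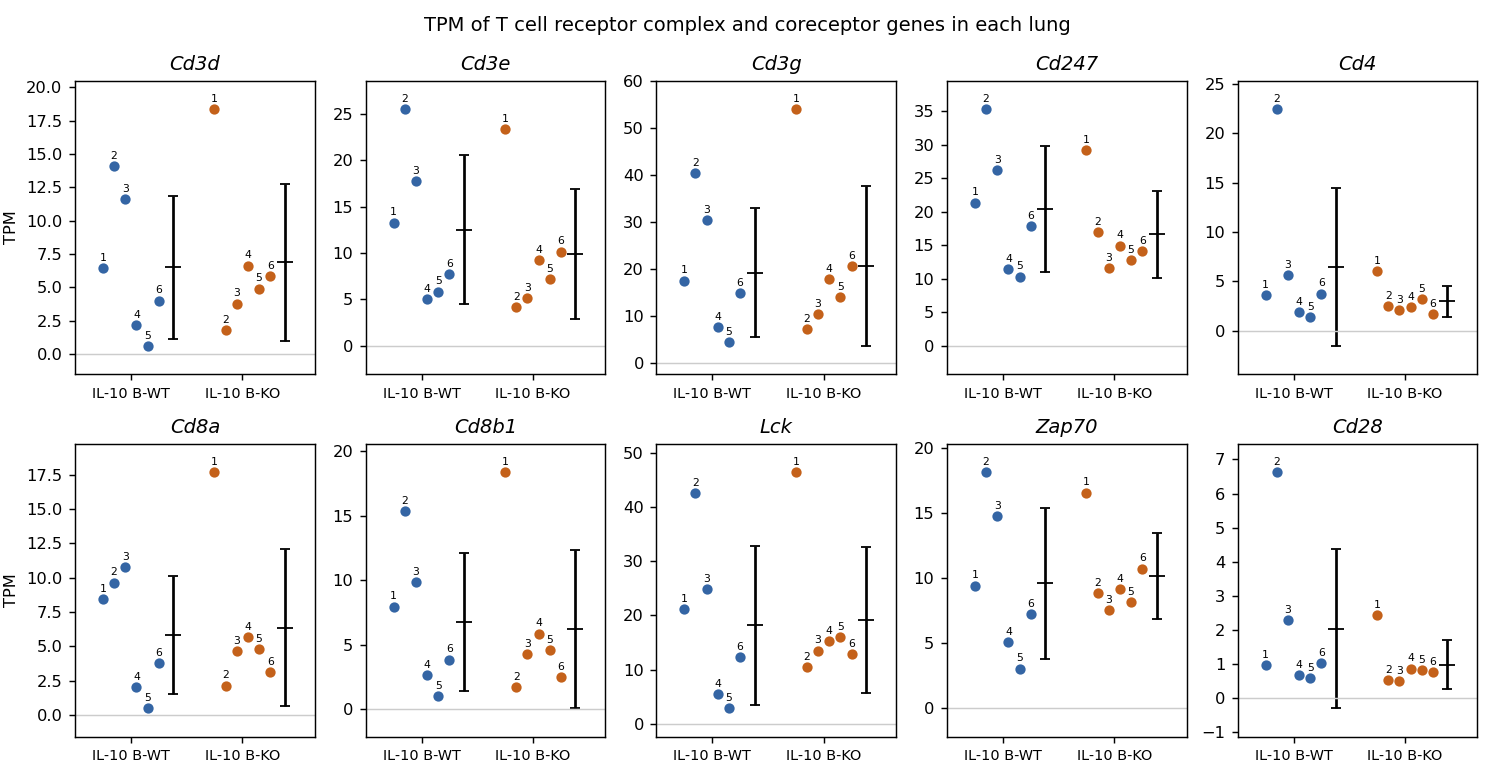
TPM of each of the 10 genes in every lung (points, numbered by replicate, blue for WT and orange for KO) with the mean and SD of each genotype (n = 6). WT2 or KO1 is the highest lung for every gene, and the genotypes overlap throughout.

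Cd3d (ENSMUSG00000032094, chr9:44981786-44987339, plus strand), the CD3 delta chain, ranged in WT lungs from 0.61 through a median of 5.21 to 14.09 TPM. In KO lungs it ranged from 1.78 through 5.36 to 18.34 TPM. The medians were nearly equal, the lowest lung was WT5 and the highest was KO1. The means were 6.48 ± 5.35 and 6.87 ± 5.87 TPM (SD, n = 6 each), with a log2 fold change of 0.19 (SE 0.55, limma adjusted p = 0.896).

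Cd3g (ENSMUSG00000002033, chr9:44969572-44980431, minus strand), the CD3 gamma chain, lay between 4.46 and 40.46 TPM in WT lungs, with a median of 16.2. In KO lungs it lay between 7.19 and 54 TPM, with a median of 15.9. KO1 was again the highest and WT5 the lowest lung, and the other lungs were interleaved. The log2 fold change was 0.13 (SE 0.52, limma adjusted p = 0.922).

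Cd3e (ENSMUSG00000032093, chr9:44998740-45009627, minus strand), the CD3 epsilon chain, pairs with both delta and gamma. Its level was 13.28, 25.47, 17.74, 5.05, 5.83 and 7.72 TPM in WT lungs 1 to 6 and 23.34, 4.15, 5.14, 9.19, 7.17 and 10.15 TPM in KO lungs 1 to 6. Only KO2 lay below all WT lungs, and none lay above them. The log2 fold change was -0.31 (95% interval -1.22 to 0.61, limma adjusted p = 0.76), on means of 12.5 ± 7.99 and 9.86 ± 6.99 TPM (SD, n = 6 each).

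Cd247 (ENSMUSG00000005763, chr1:165788681-165877277, plus strand), the zeta chain, ranged less than the CD3 genes, with a highest lung 3.42 times the lowest. WT lungs held between 10.32 and 35.27 TPM (median 19.6) and KO lungs between 11.6 and 29.25 TPM (median 14.6). The genotypes overlapped, with a log2 fold change of -0.23 (95% interval -0.87 to 0.41, limma adjusted p = 0.744). Set against the mean of the CD3 genes within each lung, Cd247 stood 0.94 ± 0.41 above them in WT lungs and 0.71 ± 0.64 in KO lungs on the log2(TPM + 1) scale (SD, n = 6 each). This difference of -0.23 was within the spread of the lungs (exact permutation p = 0.465, 0.465 adjusted over the 4 ratios compared).

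For both proximal kinases, Lck and Zap70, the genotypes overlapped, and Lck varied more between lungs than Zap70. Lck (ENSMUSG00000000409, chr4:129548344-129573641, minus strand) phosphorylates the receptor chains and ranged from 2.84 through a median of 16.8 to 42.59 TPM in WT lungs. In KO lungs it ranged from 10.53 through 14.4 to 46.47 TPM. The KO lungs other than replicate 1 were closely grouped, between 10.53 and 16.08 TPM, and lay within the WT range. The log2 fold change was 0.32 (95% interval -0.85 to 1.48, limma adjusted p = 0.809).

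Zap70 (ENSMUSG00000026117, chr1:36761798-36782818, plus strand), the kinase recruited to the phosphorylated chains, lay between 3.06 and 18.17 TPM in WT lungs and between 7.58 and 16.59 TPM in KO lungs. All KO lungs fell inside the WT range. Its means were 9.63 ± 5.81 and 10.2 ± 3.32 TPM (SD, n = 6 each), with a log2 fold change of 0.22 (SE 0.34, limma adjusted p = 0.787).

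Cd4 (ENSMUSG00000023274, chr6:124864692-124888221, minus strand), the helper T cell coreceptor, had the largest log2 fold change in size among the tested members. It was at 3.61, 22.4, 5.6, 1.91, 1.4 and 3.77 TPM in WT lungs 1 to 6 and at 6.04, 2.53, 2.1, 2.43, 3.23 and 1.7 TPM in KO lungs 1 to 6. A single lung, WT2, stood far above the others, and all KO lungs lay within the WT range. The log2 fold change was -0.50 (95% interval -1.49 to 0.50, limma adjusted p = 0.641), and it was -0.07 without WT2.

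Cd8a (ENSMUSG00000053977, chr6:71373427-71379173, plus strand) encodes the alpha chain of CD8, which T cells carry with the beta chain and some dendritic and innate-like cells carry alone. It lay between 0.49 and 10.76 TPM in WT lungs (median 6.12) and between 2.15 and 17.69 TPM in KO lungs (median 4.76). KO1 was the only KO lung above the WT range. The log2 fold change was 0.18 (95% interval -0.97 to 1.33, limma adjusted p = 0.896).

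Cd8b1 (ENSMUSG00000053044, chr6:71322788-71337494, plus strand), the beta chain, starts 50639 bases from Cd8a on the same strand. Its medians were 5.88 TPM in WT lungs (0.98 to 15.34) and 4.40 TPM in KO lungs (1.7 to 18.38). The order of the lungs was close to that of Cd8a, and the genotypes overlapped, with a log2 fold change of -0.10 (95% interval -1.27 to 1.06, limma adjusted p = 0.944).

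A ratio within a lung compares the coreceptors whatever the number of T cells, although the added 1 TPM shrinks it in lungs with low levels. The log2 ratio of Cd4 to Cd8a, each as TPM + 1, was -1.03, 1.14, -0.83, -0.06, 0.69 and -0.01 in WT lungs 1 to 6 and -1.41, 0.16, -0.88, -0.96, -0.46 and -0.62 in KO lungs 1 to 6. The lungs richest in CD3 RNA, WT2 and KO1, sat at opposite ends of this ratio, the former with more Cd4 and the latter with more Cd8a. The means were -0.02 ± 0.84 and -0.69 ± 0.53 (SD, n = 6 each), a difference of -0.68 within the spread of the lungs (exact permutation p = 0.132, 0.176 adjusted over 4 ratios). Without WT2 the difference was -0.44 (exact permutation p = 0.266).

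The log2 ratio of Cd8b1 to Cd8a was 0.18 ± 0.30 in WT and -0.10 ± 0.13 in KO lungs (SD, n = 6 each). The difference of -0.28, with 3 KO lungs below all WT lungs, did not pass (exact permutation p = 0.0693, 0.176 adjusted over 4 ratios). It had an exact permutation p of 0.0368 without WT1 (difference -0.33) and of 0.0303 without WT3 (difference -0.34), neither adjusted. With any other lung left out, the unadjusted exact permutation p lay between 0.0584 and 0.126.

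Ptprc encodes CD45, the phosphatase on all leukocytes that keeps LCK active. Ptprc was at 94.42, 116.29, 49.92, 14.17, 9.52 and 22.85 TPM in WT lungs 1 to 6 and between 31.79 and 75.48 TPM in KO lungs. The mean of the CD3 genes minus Ptprc was -1.81 ± 0.63 in WT and -2.51 ± 0.77 in KO lungs on the log2(TPM + 1) scale (SD, n = 6 each). The difference of -0.70 did not pass (exact permutation p = 0.117, 0.176 adjusted over 4 ratios). Without KO1 it was -0.98 (exact permutation p = 0.026), and without WT1 it was -0.93 (exact permutation p = 0.0433), both unadjusted. With any other lung left out, the unadjusted exact permutation p lay between 0.11 and 0.203.

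**Figure D2:**
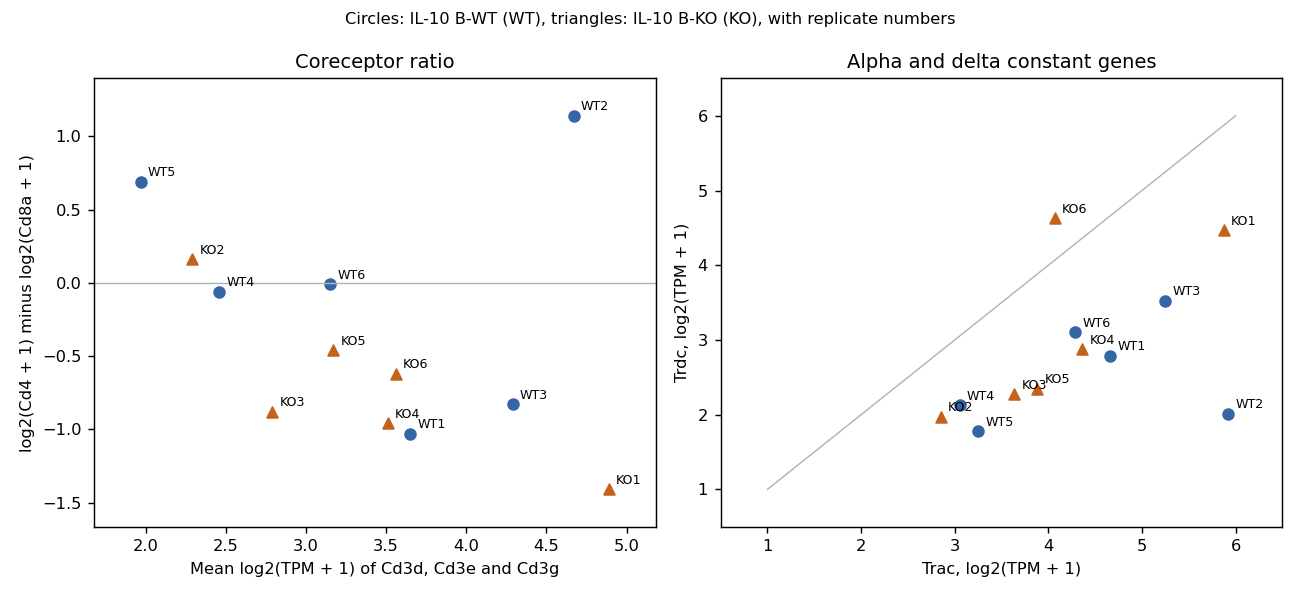
Left, the log2 ratio of Cd4 to Cd8a against the mean log2(TPM + 1) of Cd3d, Cd3e and Cd3g in each lung; right, Trdc against Trac on the log2(TPM + 1) scale, with the line of equality, where circles are WT and triangles are KO. WT2 and KO1 lie at the 2 ends of the coreceptor ratio at similar CD3 levels, and KO6 is the only lung above the line of equality.

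Cd28 (ENSMUSG00000026012, chr1:60716800-60773359, plus strand), the costimulatory receptor, was the least abundant member. It was at 0.98, 6.63, 2.3, 0.69, 0.59 and 1.03 TPM in WT lungs 1 to 6 and at 2.43, 0.54, 0.51, 0.87, 0.82 and 0.78 TPM in KO lungs 1 to 6. WT2 was again the highest, and 2 KO lungs lay below all WT lungs. The difference of mean log2(TPM + 1) was -0.42 (exact permutation p = 0.307), and -0.10 without WT2.

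**Figure D3:**
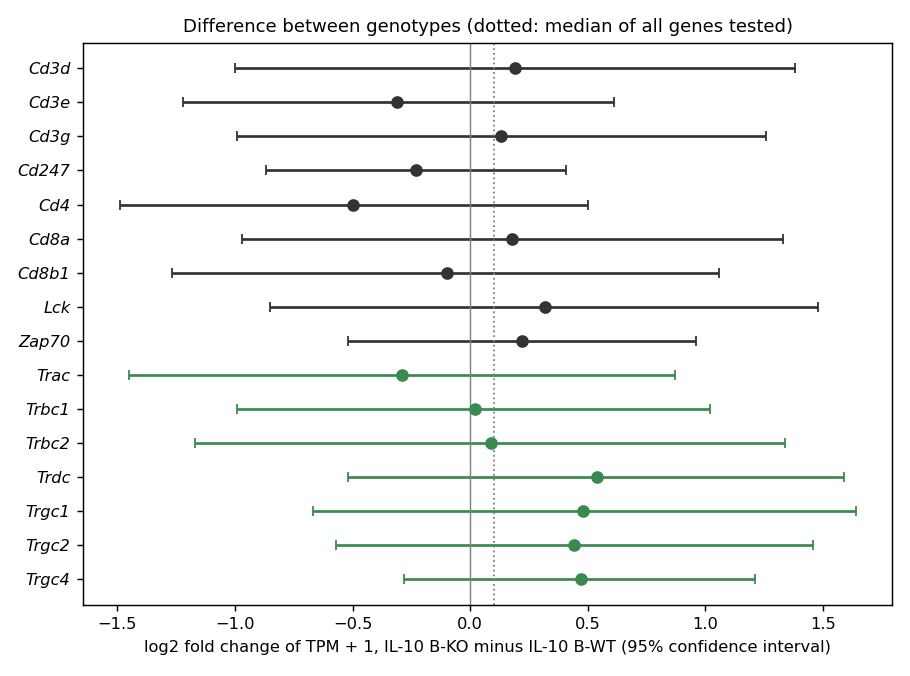
Log2 fold change of TPM + 1, KO minus WT, with its 95% confidence interval from limma for the 9 tested members (black) and 7 TCR constant genes (green). All intervals include 0 and the median of all tested genes, drawn as a dotted line at 0.10.

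By level, averaged on the log2(TPM + 1) scale over the 12 lungs, the members fell into steps. Cd247, Cd3g and Lck stood at the top with means between 18.5 and 20.0 TPM, and neighbours in this order differed by 0.10 on the log2 scale, less than their spread. Lck exceeded Cd3e (11.2 TPM) in 11 of 12 lungs by 0.59 ± 0.56 (SD, log2), and Cd3e and Zap70 (9.91 TPM) differed by 0.07. Zap70 exceeded Cd3d (6.67 TPM) in 11 of 12 lungs by 0.71 ± 0.51, while Cd3d, Cd8b1 (6.48 TPM) and Cd8a (6.11 TPM) were not separable. Cd8a and Cd4 (4.73 TPM) differed by 0.36 ± 0.76, and Cd4 exceeded Cd28 (1.51 TPM) in 12 of 12 lungs by 1.03 ± 0.29. The CD3 delta and gamma chains, which both pair with CD3 epsilon in the receptor, thus stood at different levels of RNA, gamma the higher.

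The spread between lungs of one genotype was large for these genes. The SD within genotype on the log2(TPM + 1) scale had a median of 0.96 over the members beside 0.39 over all tested genes, and was largest for Cd3d (1.08), Cd8b1 (1.06) and Lck (1.06) and smallest for Cd247 (0.56) and Zap70 (0.65). Cd8a differed 36.1-fold between its highest and lowest lung and Cd3d 30.1-fold, against 5.94-fold for Zap70. WT2 and KO1 were each the highest lung for 5 members. WT5 was the lowest for 8. WT1, WT2, WT3 and KO1 lay above the median of the 12 lungs for all 10 members. The members summed to 230 TPM in WT2 and 233 TPM in KO1, and to 30.6 TPM in WT5.

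The members therefore moved together from lung to lung. Over the 45 pairs, Pearson's r of log2(TPM + 1) over 12 lungs ranged from 0.67 to 0.99 with a median of 0.87 (Spearman's rho 0.67 to 0.98, median 0.84). With the genotype means removed, r ranged from 0.74 to 0.99. Without WT2 and KO1, the lungs farthest from the median, the range over 10 lungs was 0.59 to 0.98 with a median of 0.77. These values are descriptions, and the genes of a pair share the library and its total.

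The first 2 of the 45 pairs encode chains of the same complex, CD3 or CD8, and are also neighbours in the genome. Within genotypes, Cd3d and Cd3g had r = 0.99, with the start regions printed above, and Cd8a and Cd8b1 had r = 0.98. Cd3e and Cd3g, with starts 29196 bases apart, ranked 3 of 45 with r = 0.96. To 2 decimals, Lck had the same r with Cd3d, Cd8a and Cd8b1 from another chromosome. Cd3d and Cd3e, with starts 27841 bases apart, ranked 12 of 45 with r = 0.94. Cd4 varied most like Cd28 (r = 0.96), from another chromosome, although this pair had r = 0.83 over 10 lungs without WT2 and KO1. The lowest values were those of Cd8a with Cd28 (0.74) and of Cd8a with Cd4 (0.75), the coreceptors of different T cell classes.

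**Figure D4:**
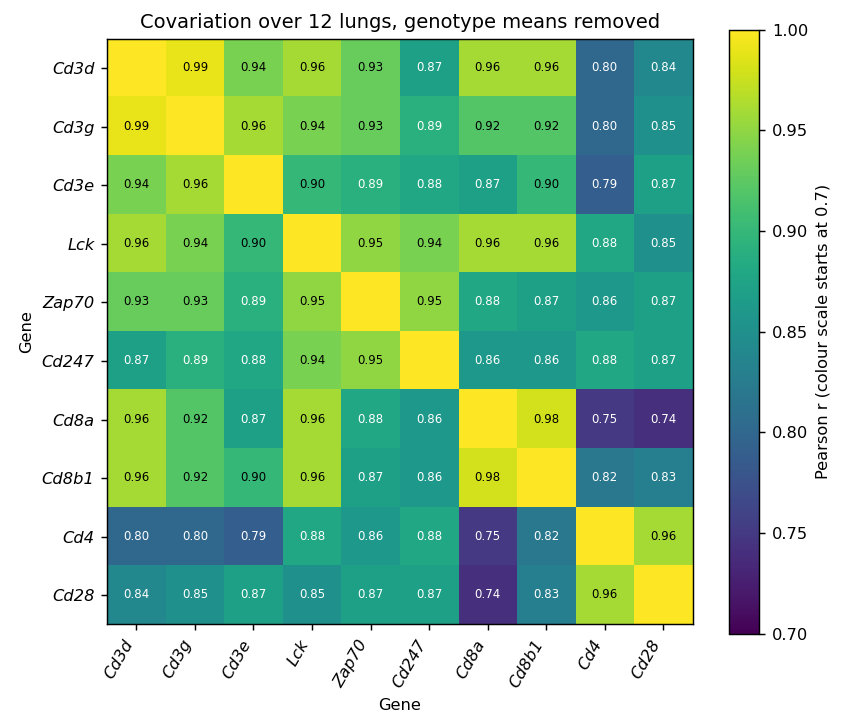
Pearson's r between pairs of the 10 genes over 12 lungs on the log2(TPM + 1) scale, after each genotype's mean was subtracted. Cd3d with Cd3g (0.99) and Cd8a with Cd8b1 (0.98) are the highest, and Cd8a with Cd28 (0.74) is the lowest.

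Among the genes outside the members whose level was most like the members' mean over the 12 lungs were Lat, Trbc2, Cd96, Thy1, Rasal3, Ubash3a and Cd5, with r between 0.97 and 0.99. Lat is the adaptor downstream of ZAP-70, Thy1 and Cd5 are T cell surface proteins, and Ubash3a is a phosphatase-like regulator of TCR signaling. Lat had r = 0.99 also without WT2 and KO1, and Ubash3a had r = 0.93 there. Lat averaged 16.4 ± 12.5 TPM in WT and 14.6 ± 9.88 TPM in KO lungs (SD, n = 6 each), with a log2 fold change of 0.02 (limma adjusted p = 0.99).

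The antigen-binding chains themselves gave the same picture for alpha and beta. Trac, the alpha constant gene, was at 24.3, 59.69, 36.98, 7.31, 8.51 and 18.54 TPM in WT lungs 1 to 6 and at 57.67, 6.23, 11.44, 19.59, 13.76 and 15.81 TPM in KO lungs 1 to 6. The same lungs were high as for the CD3 genes, and the log2 fold change was -0.29 (limma adjusted p = 0.824). The beta constant genes Trbc1 and Trbc2 had log2 fold changes of 0.02 and 0.09 (limma adjusted p = 0.992 and 0.957), although these are near-identical copies whose reads may be divided uncertainly.

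The gamma and delta chains, which form the receptor of gamma-delta T cells, followed a different order of lungs. Trdc, the delta constant gene, was at 5.92, 3.04, 10.51, 3.36, 2.44 and 7.61 TPM in WT lungs 1 to 6 and at 21.1, 2.93, 3.83, 6.33, 4.09 and 23.81 TPM in KO lungs 1 to 6. KO1 and KO6 exceeded all WT lungs, and KO6 was the only lung of 12 with Trdc above Trac. Trgc1, a gamma constant gene, was likewise highest in KO6 (20.96 TPM) and KO1 (16.97 TPM), the WT lungs reaching 10.59 TPM. Their log2 fold changes were 0.54 and 0.48 (limma adjusted p = 0.635 and 0.698). WT2, the highest lung for Cd4 and Trac, was among the 3 lowest for Trdc. Of the other gamma constant genes, Trgc2 was at 11.08 TPM in KO1 and 6.17 TPM in KO6 against at most 7.77 TPM in WT lungs (log2 fold change 0.44, limma adjusted p = 0.684). Trgc4 was at 5.63 and 3.77 TPM in these lungs against at most 3.66 TPM in WT lungs (log2 fold change 0.47, limma adjusted p = 0.559). KO6 thus exceeded all WT lungs for Trdc, Trgc1 and Trgc4 and not for Trgc2. Of the 7 constant genes measured, 6 were higher and 1, Trac, was lower in KO lungs on the log2 scale, the median of their log2 fold changes being 0.44, and 0 passed in limma at an adjusted p of 0.05 or at an unadjusted p of 0.05. Among the gamma constant genes, Trgc1 and Trgc2 are also near-identical copies.

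In the proximal TCR signaling list (adaptors, kinases and enzymes acting with the members), 20 of 22 genes were tested, 12 with a higher and 8 with a lower mean in KO lungs, and a median of 0.08 on the log2 scale. Here 0 genes passed in limma, adjusted or unadjusted. Vav1, an exchange factor, and Lcp2, the adaptor SLP-76, had log2 fold changes of 1.14 and 1.18 (limma adjusted p = 0.441 and 0.471). Both are also used by myeloid cells.

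The KEGG TCR signaling pathway, as annotated in the deposited table and without the members, held 94 genes, of which 84 were tested, 58 higher and 26 lower, with a median log2 fold change of 0.17. In limma 0 passed at an adjusted p of 0.05, and 3 higher and 2 lower genes had an unadjusted p of at most 0.05, 5.95% of those tested beside 12.5% of all genes. Nck2, an adaptor linking the CD3 complex to actin, had the smallest unadjusted limma p of the 84 tested. It lay between 18.49 and 29.5 TPM in WT lungs and between 10.83 and 17.91 TPM in KO lungs. The groups of Nck2 did not overlap, which held for 1.02% of all tested genes. Its log2 fold change was -0.72 (SE 0.16, limma adjusted p = 0.071), and its exact permutation p of 0.00216 was the smallest the design allows. Mapk13, a p38 kinase, was at 14.3 ± 10.3 and 28.9 ± 7.83 TPM (SD, n = 6 each, limma adjusted p = 0.206). Pak6, a kinase of the cytoskeleton, was low, at 0.867 ± 0.316 and 2.21 ± 1.05 TPM (SD, n = 6 each), and 5 KO lungs lay above all WT lungs (log2 fold change 0.74, limma adjusted p = 0.202). Jun, a subunit of AP-1, was at 191 ± 20.7 and 152 ± 18.4 TPM (SD, n = 6 each, limma adjusted p = 0.353).

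Among 13 inhibitors of TCR signaling, 5 were higher and 8 lower (median -0.12), 0 passed the adjusted test in limma, and 1, the adaptor Sla, passed at an unadjusted p of 0.05 (log2 fold change 1.22, limma adjusted p = 0.35). Of 14 costimulatory and checkpoint receptors, 4 were higher and 10 lower (median -0.17), 0 passed the adjusted test, and 2 passed at an unadjusted p of 0.05. These were Havcr2, which encodes TIM-3 and is also made by myeloid cells, with a log2 fold change of 1.36 (limma adjusted p = 0.298), and Tnfrsf9, which encodes 4-1BB, with 1.22 (limma adjusted p = 0.382). Of the partner-cell ligands of CD28 and CD2, 5 of 6 tested genes were higher (median 0.75) and 0 passed, adjusted or unadjusted, in limma. Cd86 and Cd80, the ligands of CD28, had log2 fold changes of 0.75 and 0.88 (limma adjusted p = 0.489 and 0.521).

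Of 12 tested T cell transcription factors, 7 were higher and 5 lower (median 0.30), and 0 passed the adjusted test in limma. Lef1, a factor of naive T cells also present in other lung cells, was at 4.22, 14.55, 6.05, 5.38, 8.03 and 7.0 TPM in WT lungs 1 to 6 and at 7.2, 2.89, 2.56, 2.91, 2.87 and 1.26 TPM in KO lungs 1 to 6. All KO lungs but replicate 1 lay below all WT lungs, yet the adjusted test was missed (log2 fold change -1.01, limma adjusted p = 0.232). Gata3, a factor of helper and innate lymphoid cells, was at 4.66 ± 1.47 and 2.26 ± 1.10 TPM (SD, n = 6 each, limma adjusted p = 0.238). Over the 12 lungs Gata3 had r = 0.06 with the members' mean, beside 0.41 for Lef1 and a median of 0.56 for the tested genes of this list. Which cells gave the Gata3 RNA was not tested. Lef1 and Gata3 were the 2 genes of this list with an unadjusted p of at most 0.05.

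Of 11 tested homing genes of naive and memory T cells, 7 were higher and 4 lower (median 0.33), 0 passed the adjusted test in limma, and 2 passed at an unadjusted p of 0.05. Klf2, which sustains naive T cell recirculation and is abundant in endothelium, lay between 231.36 and 612.09 TPM in WT lungs and between 185.79 and 260.38 TPM in KO lungs. The groups overlapped through WT1 alone, and the log2 fold change was -0.89 (limma adjusted p = 0.0961). Cd44, an adhesion receptor of memory T cells and many myeloid cells, had a log2 fold change of 1.02 (limma adjusted p = 0.381).

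Over the 12 lungs, the median r with the members' mean was 0.41 for NK and cytotoxic genes, 0.38 for B cell genes, 0.33 for macrophage and monocyte genes, -0.01 for neutrophil genes and 0.66 for pan-leukocyte genes, beside 0.38 over all tested genes and 0.84 for proximal TCR signaling genes. The 13 NK and cytotoxic genes were all higher in KO lungs on the log2 scale (median 0.32, 0 at an adjusted and 2 at an unadjusted p of 0.05 in limma) and summed to between 313 and 1999 TPM in WT and between 895 and 2130 TPM in KO lungs. Most of the sum in each lung came from Fcer1g (100.26 to 1297.63 TPM) and Ccl5 (124.31 to 853.91 TPM), the 2 genes with an unadjusted p of at most 0.05. Fcer1g and Ccl5 had log2 fold changes of 1.54 and 1.18 (limma adjusted p = 0.342 and 0.281). Those of the other NK and cytotoxic genes ranged from 0.07 to 1.01, so that the sums mainly describe Fcer1g and Ccl5. Of 9 neutrophil genes (median 1.48) and 10 macrophage and monocyte genes (median 1.42), 7 of each list were higher in KO lungs at an unadjusted and 0 at an adjusted p of 0.05 in limma. The granule genes Elane and Mpo had log2 fold changes of 0.00 and 0.04 with slightly lower mean TPM in KO lungs. The neutrophil genes summed to between 294 and 2515 TPM in WT and between 1052 and 7543 TPM in KO lungs, and the macrophage genes to between 141 and 2116 and between 321 and 2484 TPM. The 8 pan-leukocyte genes were all higher (median 0.80, 1 unadjusted and 0 adjusted), summing to between 370 and 3179 TPM in WT and between 771 and 3205 TPM in KO lungs. Of 8 tested dendritic cell genes, 5 were higher and 3 lower (median 0.09, 1 unadjusted and 0 adjusted), and of 9 lung epithelial and endothelial genes 4 were higher and 5 lower (median -0.11, 1 unadjusted and 0 adjusted). The part of these cells in the members' values was not tested.

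The 10 B cell genes all had a lower mean in KO lungs (median log2 fold change -1.75), 8 at an unadjusted p of 0.05, and Cd79a passed the adjusted test (-4.16, limma adjusted p = 0.0222). Cd79a is the Mb1 gene of the Cre driver, and what the driver does to Cd79a RNA was not tested. The 10 genes summed to 1059 TPM in WT2 and to between 77.5 and 147 TPM in the other WT lungs, beside 14.8 to 97.8 TPM in KO lungs. WT2, the lung highest for Cd4 and Cd28, thus also had the most B cell RNA. Cd79b and Cd22, with Cd79a the most abundant of the list, were at 214.47 and 136.56 TPM there. Of 7 lymph node stroma and high endothelial genes measured, 3 were highest in WT2. These were Glycam1, a ligand made by high endothelial venules (139.75 TPM, at most 0.97 in the other lungs), the T zone chemokine Ccl19 (141.29 TPM, at most 9.47 elsewhere) and the vascular addressin Madcam1 (2.93 TPM). The other 4 did not single it out. Ccl21a, the most abundant, was at 258.87 TPM in WT2 and highest in KO4 (353.44 TPM), Cxcl13 was at 115.71 TPM in WT2 and highest in KO5 (120.44 TPM), Pdpn was highest in WT1 (263.07 TPM) and Chst4 in KO1 (5.26 TPM). Glycam1, Madcam1 and Chst4 were chosen after their values were seen. KO1, equally rich in the members, had 26.6 TPM of B cell genes. Of the lymph node stroma and high endothelial genes, 4 were tested, with 2 higher and 2 lower in KO lungs, and 0 passed in limma, adjusted or unadjusted. The defining thymocyte genes Rag1 and Rag2, chosen outside the rule for named genes, were at most 0.03 and 0.04 TPM in any lung, and of 10 thymocyte genes 2 were tested, Rmnd5a and Cd1d1, which lung cells also express, both lower in KO lungs (median -0.06, 0 adjusted or unadjusted in limma). What these values contribute to the level of the members was not tested.

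**Figure D5:**
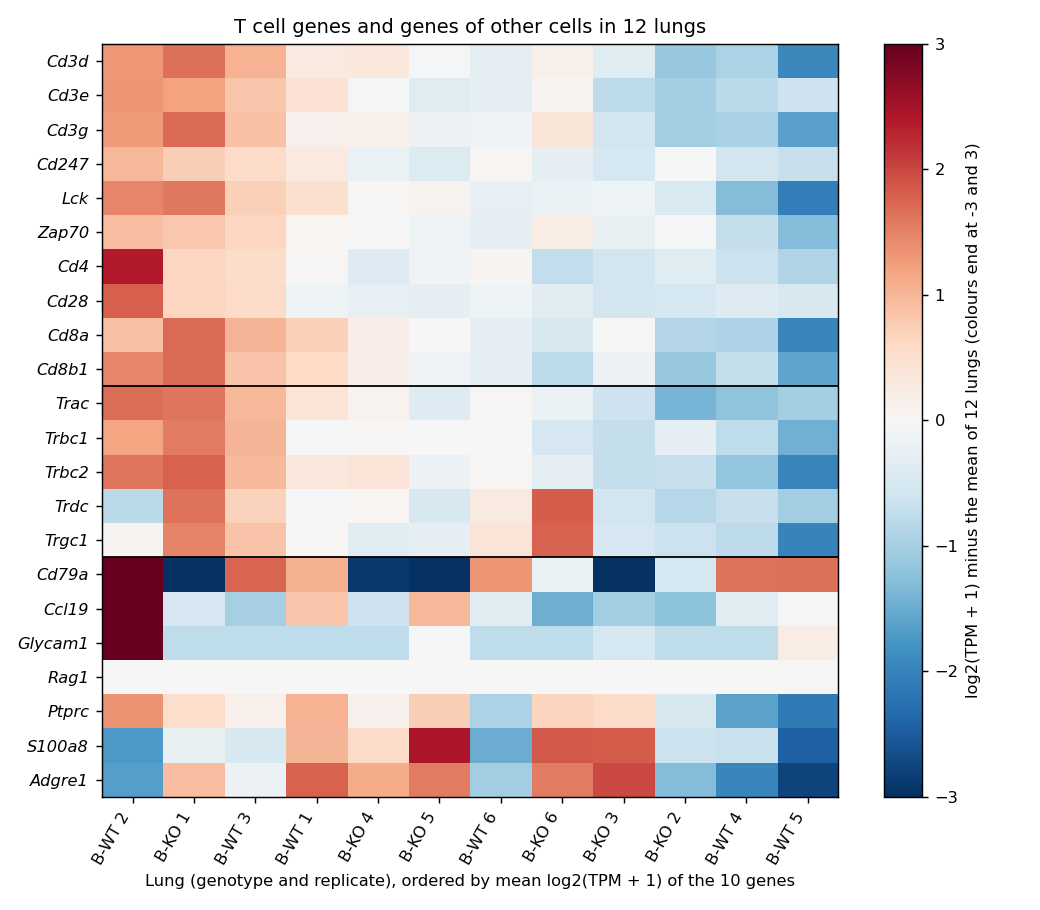
Log2(TPM + 1) minus the mean of 12 lungs for the 10 members, TCR constant genes and marker genes of other cells (top to bottom), with lungs ordered by the members' mean. The members shade together from left to right, while Cd79a, Ccl19 and Glycam1 peak in the column B-WT 2 and Trdc and Trgc1 peak in B-KO 1 and B-KO 6.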

How the data were processed

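RNA from 12 lungs was analysed, 6 per genotype, grouped by the genotype in the labels. The authors deposited 1 table of TPM per gene and lung, calculated with RSEM, without pooling and rounded to 2 decimals. The submitters' processing notes name fastp, HISAT, RSEM and GRCm38.p5 without tool versions. TPM keep no depth, so that the reads behind a value are unknown, no count model or counting interval applies, and precision rests on the spread between lungs. The columns summed to between 991646 and 994430 TPM, and between 21380 and 24138 genes were above 0.

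TPM were analysed as log2(TPM + 1), which understates changes of low genes, in R 4.3.3 with the package limma 3.58.1 (lmFit and trended eBayes, no covariate besides genotype), keeping genes that reached 1 TPM in 6 or more lungs, and Benjamini-Hochberg adjustment over all of them. Calls needed adjusted p ≤0.05 and a log2 fold change of 1 or more in size. Single genes and ratios were compared by two-sided exact permutation tests over 924 arrangements in Python 3.11.15 with NumPy 2.4.6, pandas 2.3.3 and SciPy 1.17.1, and plots used matplotlib 3.10.9. The labels number the mice but do not say how lungs were processed together, so that p-values measure the spread between these lungs. The limma fit was tested on simulated data in which genes were drawn independently of each other, and the exact tests were checked on known answers.

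The members and the 16 gene lists were chosen with earlier results of these data known. The rule for naming genes beyond the members took all TCR constant genes, up to 4 genes of each list with the smallest unadjusted p (not all of which are printed), up to 3 of the most abundant B cell, thymocyte and lymph node genes, and the 8 genes most like the members' mean, 1 of which is not reported here. Rag1, Rag2, Elane, Mpo, Glycam1, Madcam1 and Chst4 were named outside this rule. Gene coordinates came from GENCODE M21 on GRCm38. The alternatives changed the pseudocount (to 0.1), the filter (none, or a mean of 5 TPM), the scaling (without immunoglobulin genes, by quantiles, or by each lung's median), the weights (array quality weights), the terms (a replicate block) and the lungs (each left out in turn).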

Additional observations from a re-analysis of the deposited data

Results flagged for a closer look

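Among 42 groups of 6 lungs examined over 21 genes and ratios, 3 had a lung far from the rest, by the gap to the nearest lung as a share of the group's range (past the 95% critical value of Dixon's ratio, which chance exceeds in about 1 of 20 groups). All 3 concern KO1, so they are not independent. For Lck this share was 0.722, at 46.47 TPM. For Cd28 it was 0.739, at 2.43 TPM, and for Trbc1 it was 0.672, at 53.84 TPM.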

How the results depend on the processing

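Under every alternative, limma called 0 members and gave 0 members with unadjusted p ≤0.05, while the calls over all genes ranged from 6 (no filter) to 576 (without WT1), with 318 under array quality weights, 28 after rescaling without immunoglobulin genes, 36 after median centring, 39 after quantile normalization and 75 as reported. Directions of these small differences were not stable. With array quality weights the log2 fold change was -0.04 for Cd3d, -0.05 for Cd3g, -0.11 for Cd8a and 0.00 for Zap70. With 1 lung left out it ranged from -0.18 to 0.47 for Cd3d, -0.19 to 0.41 for Cd3g, -0.19 to 0.40 for Cd8a, -0.45 to 0.18 for Cd8b1, -0.06 to 0.64 for Lck and -0.02 to 0.43 for Zap70. For Cd3e (-0.58 to -0.07), Cd247 (-0.40 to -0.05), Cd4 (-0.73 to -0.07) and Cd28 (-0.58 to -0.10) the sign held in each alternative that gave a value. The mean TPM filter left out Cd4 and Cd28. Adjusted p over the alternatives lay between 0.288 (the lowest for Cd4) and 0.997.

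With 1 lung left out, the ratio differences ranged from -0.34 to -0.19 for Cd8b1 to Cd8a, -0.98 to -0.55 for CD3 to Ptprc, -0.88 to -0.44 for Cd4 to Cd8a and -0.47 to -0.10 for Cd247 to CD3. With the replicate block, an exact sign-flip test over same-numbered lungs gave -0.68 for Cd4 to Cd8a (exact p = 0.0312, the smallest it allows), and limma with the replicate block called 45 genes over all and 0 members. Same-numbered lungs did not deviate together (r from -0.29 to 0.05, and 0 lungs of either genotype correlated best with their own number). This cannot decide whether the numbers pair the lungs, since the labels do not say how lungs were processed together. The cause of these shifts was not tested. Median centring moved the median log2 fold change of all genes from 0.10 to -0.01. The precision is limited by 6 lungs per genotype and unknown depth.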
